A study of Mus musculus with 24 samples.

Results

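The comparison described here sets 6 libraries of macrophages from Ninj1 knockout mice against 6 libraries of macrophages from wild-type mice, all kept in media without stimulation. These 12 libraries were taken by their titles (Ninj1KO_NoPrime and WT_NoPrime) from a series of 24, whose other 12 libraries received Pam3, the usual short name of a synthetic lipopeptide that activates Toll-like receptor 2. The cells were bone marrow-derived macrophages (BMDMs), primary macrophages grown in culture from marrow precursors. The groups are called WT_media and KO_media below. The wild-type mice were C57BL/6 and carried the label male, and the knockout mice carried no sex label. The sources used here do not give the background strain of the knockout mice, any ages, the allele used to remove Ninj1, the culture times or the number of animals. Nothing in the labels tells whether libraries of 1 group are separate mice or separate dishes. Every p-value therefore measures only how far these samples spread, and that spread may be technical.

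NINJ1 is a small transmembrane protein of the cell surface, first described as an adhesion molecule induced by nerve injury. In dying cells it clusters in the plasma membrane and carries out the final rupture that releases large cell contents, after gasdermin D pores or other lytic death programmes. Macrophages express it at rest, and resting cultures are made up mostly of living cells, so the comparison asks which transcripts differ between genotypes before any death stimulus is given.

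Each library held 31302011 to 40663152 counted reads, and neither the totals (two-sided exact permutation p = 0.459) nor the number of genes with a count (exact permutation p = 0.102) differed past the threshold. The mitochondrial share of reads was lower in KO_media (0.553% ± 0.0354 against 0.628% ± 0.0175, SD, n = 6, exact permutation p = 0.00433, 0.0130 adjusted over 3 measures). No pair of libraries agreed within counting noise. The cells carried macrophage markers: 10 of 10, among them Csf1r, Adgre1 and Lyz2, were present at 31.5 to 13003 size-factor-adjusted RPKM, a scale that corrects for gene length. The 5 dendritic, 5 lymphocyte and 4 erythroid and megakaryocyte markers chosen for this check were all under 1 on this scale. Longer lists of these types hold more abundant genes, and their summed levels are given at the end. Among mast cell and basophil markers Kit alone passed 1, at 1.82. Granulocyte and stromal markers were low but differed between the groups, and their values are given with those genes. In bulk RNA, more cells of a type and more RNA per cell cannot be told apart. Xist, the RNA that coats the inactive X chromosome, was detected throughout (643 to 946 CPM, counts scaled to the library total, in WT_media and 595 to 718 CPM in KO_media). The Y-linked Kdm5d and Eif2s3y had 0 counts in all 12 libraries, where a count of 0 leaves room for at most 0.0738 to 0.0958 CPM. Both measurements go against the label male. Nnt, part of which is deleted in the substrain C57BL/6J, stood near the floor in both groups (0.415 to 0.893 CPM in WT_media, 0.385 to 0.747 CPM in KO_media).

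Ninj1 itself (ENSMUSG00000037966, chr13:49187485-49196244 of GRCm38) stood at 344 to 386 CPM in WT_media, median 367, and at 180 to 213 CPM in KO_media, median 200. All 6 KO_media libraries lay below all 6 WT_media libraries, and the log2 fold change of KO over WT was -0.88 (SE 0.0397, edgeR quasi-likelihood test with Benjamini-Hochberg adjustment, adjusted p = 2.07e-10), the smallest adjusted p of all genes tested. The deleted part of the gene is not stated and a count sums reads over all exons, so these reads do not bear on whether protein is made. The paralog Ninj2 was at or near 0, with at most 0.0518 CPM in any library.

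Resting macrophages of the knockout differed from wild type in many genes by small amounts. Of 13944 genes tested, 581 (4.17%) were higher and 531 (3.81%) lower in KO_media at an adjusted p under 0.05 by edgeR's quasi-likelihood test. The median change was 0.28 among the higher and -0.18 among the lower genes on the log2 scale. Changes of at least 1.5-fold were found for 122 higher and 40 lower genes, and of at least 2-fold for 13 and 7. The 6 libraries of one group lay wholly above the 6 of the other for 285 genes called higher and 260 called lower. Over all tested genes this was so for 321 (2.3%) with KO_media above and 292 (2.09%) with KO_media below. Genes named below for the largest changes or the smallest adjusted p were drawn only from called genes without overlap. For them its absence was a condition of naming and is no further result. Without KO_media replicate 4 the higher genes numbered 379, and without WT_media replicate 3 they numbered 384.

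**Figure D1:**
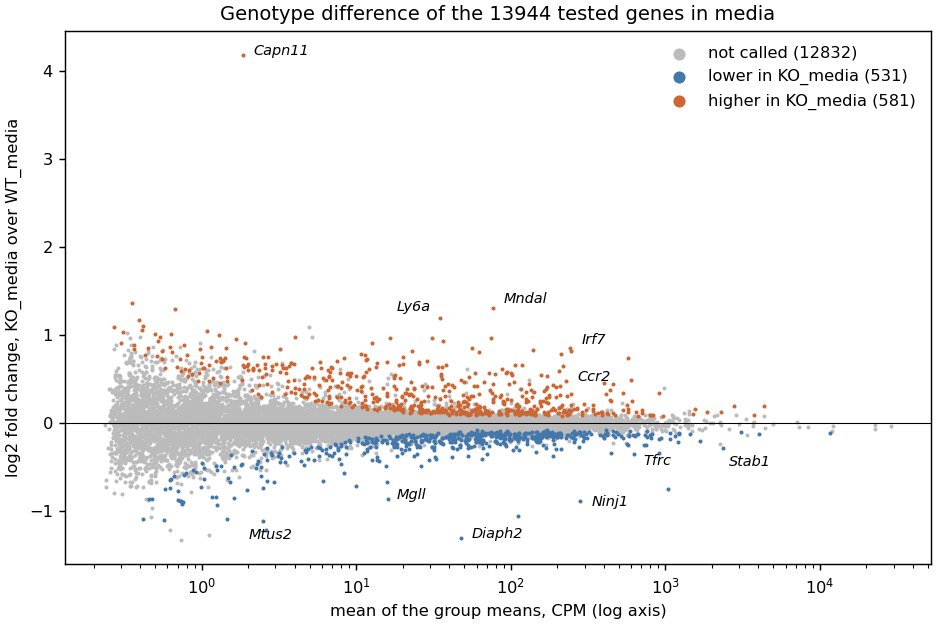
Each point is 1 of the 13944 tested genes, with the mean of the 2 group means in CPM on a log axis and the fitted log2 fold change of KO_media over WT_media on the vertical axis. Orange points (581) passed the test as higher and blue points (531) as lower, most within 1 log2 unit of 0, with Capn11 at 4.17 far above the rest.

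Many of the genes that rose in KO_media are induced by interferons, the cytokines that put cells into an antiviral state through receptors and transcription factors. Of 55 tested antiviral effector genes 42 were higher and 1 lower, with a median log2 fold change of 0.47. The p200 family of nuclear DNA-binding proteins (8 of 10 higher, median 0.63), the guanylate-binding and immunity-related GTPases, which attack vacuoles holding microbes (7 of 15 higher, median 0.51), and the genes of sensing and signalling (9 of 27 higher, median 0.07) had no lower member. Across all tested genes the median was -0.00067, and these shares stand beside a background of 4.17% higher. The lists were chosen with earlier results of these data known.

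Among sensors and signalling genes, Irf7, a master regulator of interferon production, was at 148 to 195 CPM in WT_media (median 178) and 250 to 523 CPM in KO_media (median 272). All KO_media libraries were above all WT_media libraries (log2 0.82, SE 0.141, adjusted p = 0.00178, edgeR). Irf9, the DNA-binding part of the complex that type I interferon activates, rose by 0.30 without overlap (72.1 to 84.3 CPM against 87.4 to 109 CPM). Ddx58, which encodes the RNA sensor RIG-I, rose by 0.57, and Tmem173, which encodes the adaptor STING, by 0.18, both without overlap.

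Among effectors, Ifit3, whose product helps to recognise foreign RNA ends, was at 42.2 to 58.1 CPM in WT_media (median 51.3) and 68.0 to 199.6 CPM in KO_media (median 78.1). Isg15, a ubiquitin-like modifier, was at 22.2 to 26.9 CPM (median 25.1) and 34.2 to 100.3 CPM (median 37.3). Oasl2, of the oligoadenylate synthetase family, was at 131 to 176 CPM (median 157) and 209 to 463 CPM (median 228). In each the groups did not overlap, and the log2 fold changes were 0.97, 0.93 and 0.79. Ifi27l2a rose by 0.65 and Slfn2, needed for immune cell quiescence, by 0.34. Ifi27 was the 1 lower member (48.3 to 53.3 against 37.4 to 47.0 CPM, log2 -0.27, adjusted p = 0.00232, edgeR).

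Mndal, of the p200 family, showed the largest rise among genes called higher with a mean over 40 CPM in WT_media: 28.6 to 57.7 CPM there (median 43.9) and 87.5 to 175 CPM in KO_media (median 94.2; log2 1.31, SE 0.176, adjusted p = 0.000163, edgeR). Its relatives Ifi206 (8.91 to 13 against 14.7 to 43.3 CPM, log2 0.97), Ifi211 (0.70) and Ifi204 (0.59) rose as well. Of the GTPases, Tgtp2 was at 2.18 to 3.24 CPM in WT_media and 3.74 to 10.8 CPM in KO_media (log2 0.98), and Irgm1 and Irgm2, which regulate the others, rose by 0.55 and 0.57. None of these genes overlapped between the groups. Reads that align to several places are not in the counts, so values of near-identical relatives such as the p200, Ifit and Tgtp genes are uncertain.

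KO_media replicate 1 stood highest in most of these genes and carried much of the size of the rise. Averaged over the antiviral effectors, its level was 1.18 log2 units above the WT_media mean, against 0.19 to 0.50 for the other 5 KO_media libraries and -0.14 to 0.14 for the WT_media libraries. By this list all 6 KO_media libraries were above all 6 WT_media libraries, with 1 of them far above. Without replicate 1 the median log2 fold change of the antiviral list was 0.29 in place of 0.47, that of the GTPases 0.29 in place of 0.51 and that of the p200 family 0.41 in place of 0.63, while 47, 8 and 9 members were called higher. Irf7 was then at 0.61 (adjusted p = 6.38e-07, edgeR), Ifit3 at 0.65 and Isg15 at 0.57. Leaving out WT_media replicate 5, the lowest wild-type library by the antiviral list, left 27 antiviral effectors, 4 GTPases and 5 p200 genes called higher. With only 3 wild-type libraries in the fit, all KO_media against WT_media replicates 3, 4 and 6 gave 5 antiviral effectors called higher, and against replicates 1, 2 and 5 gave 2. In both fits 1 p200 gene and 0 GTPases were called.

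**Figure D2:**
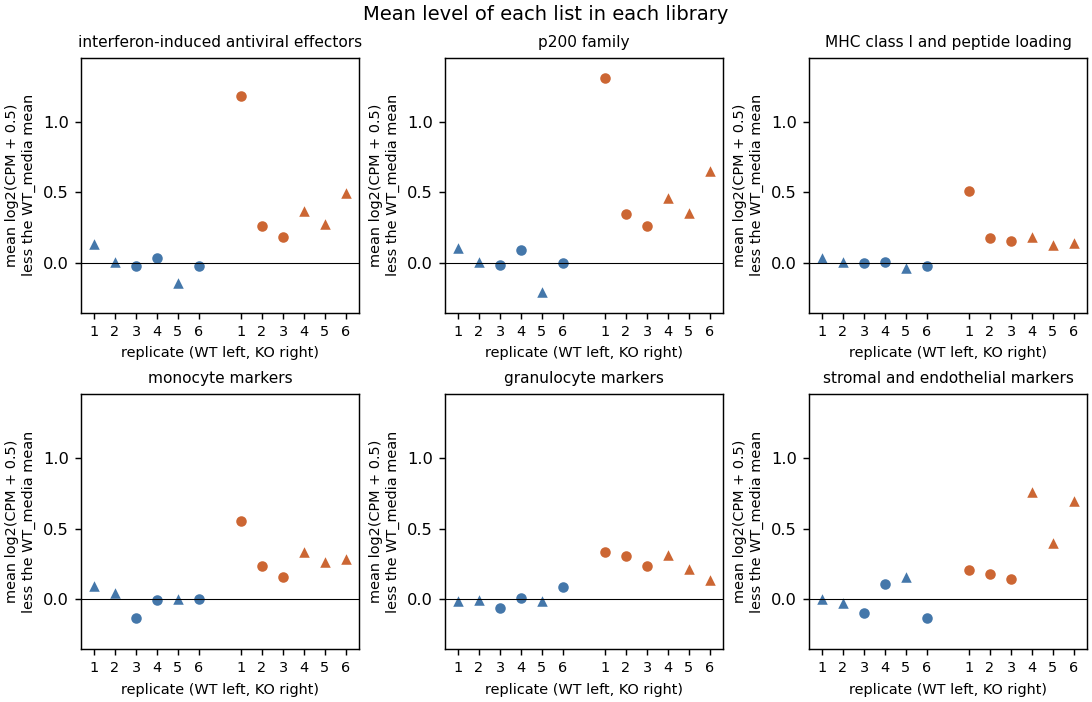
Each panel gives 1 gene list and each point 1 library: the mean over list members of log2(CPM + 0.5), less the mean of that value over WT_media. Blue is WT_media, orange KO_media, circles the 3 lower and triangles the 3 higher sample numbers of a group in the labels. KO_media replicate 1 reaches 1.18 for antiviral effectors, and the 3 KO_media libraries with higher numbers stand highest for stromal markers.

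MHC class I genes, which display peptides from inside the cell and are also induced by interferons, rose in smaller steps. Of 23 tested genes of class I and peptide loading 14 were higher (60.9%, against 4.17% of all tested genes) and 0 lower, with a median of 0.21. The 14 were 6 in the fit of all 24 libraries and 2 and 4 against WT_media replicates 3, 4 and 6 and replicates 1, 2 and 5. H2-K1, a classical heavy chain, was at 1456 to 1495 CPM in WT_media (median 1476) and 1572 to 1746 CPM in KO_media (median 1645; log2 0.16, SE 0.0257, adjusted p = 0.000923, edgeR). B2m, the light chain of all class I molecules, rose by 0.19 (2387 to 2714 against 2765 to 3226 CPM). H2-Q6, a nonclassical chain, rose by 0.61, and Psme1, a proteasome activator subunit, by 0.24, none of them with overlap. Of 12 class II genes, Ctss (0.19), H2-DMa (0.12) and Cd74 (0.15) were higher (25.0% of the list) and 0 lower. Ctss, a protease that trims the invariant chain, did not overlap between groups, while the calls of H2-DMa and Cd74 ended without any 1 of 5 single libraries each.

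Many interferon-induced genes carry a short promoter element, bound by interferon-activated transcription factors, with a core of GAAANNGAAA. It was searched on both strands in 300-base windows from RefSeq, 250 bases before to 50 after each annotated start. The core stood in 3.44% of 32851 windows. By gene, it stood in a window of 70 of the 441 higher genes with one (15.9%), 13 of the 381 lower genes (3.41%) and 314 of the 9002 genes not called (3.49%). Among higher genes in the interferon and MHC class I lists 32 of 67 had it (47.8%), so many of them lacked it in these windows. Outside these lists 38 of 374 had it (10.2%). These 38 include relatives of list members, such as further Oas, Ifitm, Trim and Phf11 genes. Standing outside the lists therefore does not mark a gene as not induced by interferons. Without KO_media replicate 1 the higher genes with the core were 72 of 416. A match is a description of the letters and not of binding.

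Of the 12 genes with the largest rises by the naming rule, 10 had a window and 5 of these had the core, and the 200 bases before their start are shown with it in capitals, to make visible what these promoters share (RefSeq, GRCm38.p6, 5′ to 3′ on the gene's strand). They lie at chr1:173880188-173880387 (Mndal, minus strand), chr11:49064213-49064412 (Tgtp2, minus), chr19:34583329-34583528 (Ifit3, plus), chr1:173491319-173491518 (Ifi206, minus) and chr4:156200819-156201018 (Isg15, minus).
Mndal: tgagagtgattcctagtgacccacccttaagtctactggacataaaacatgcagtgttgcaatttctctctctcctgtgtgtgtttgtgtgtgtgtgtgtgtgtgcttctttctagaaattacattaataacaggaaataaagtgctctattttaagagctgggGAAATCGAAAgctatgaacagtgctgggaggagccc
Tgtp2: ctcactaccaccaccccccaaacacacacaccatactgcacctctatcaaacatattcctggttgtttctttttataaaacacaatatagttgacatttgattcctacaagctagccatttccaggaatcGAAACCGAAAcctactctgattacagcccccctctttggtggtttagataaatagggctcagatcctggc
Ifit3: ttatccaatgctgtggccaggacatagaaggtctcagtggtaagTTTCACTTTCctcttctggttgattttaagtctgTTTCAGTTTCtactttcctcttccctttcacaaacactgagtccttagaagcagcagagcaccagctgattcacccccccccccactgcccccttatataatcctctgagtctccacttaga
Ifi206: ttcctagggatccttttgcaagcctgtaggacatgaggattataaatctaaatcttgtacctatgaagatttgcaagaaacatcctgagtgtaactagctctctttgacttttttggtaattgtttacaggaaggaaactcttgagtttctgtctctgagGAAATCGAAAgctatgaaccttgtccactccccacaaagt
Isg15: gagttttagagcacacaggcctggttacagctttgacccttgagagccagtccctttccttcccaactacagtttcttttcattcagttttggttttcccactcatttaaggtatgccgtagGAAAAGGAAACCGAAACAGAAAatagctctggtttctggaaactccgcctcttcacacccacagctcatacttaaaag
Mndal and Ifi206, 2 p200 genes with rises of 1.31 and 0.97, had the same 10 letters, beginning 36 and 40 bases before the start. Ifit3 had 2 matches, both on the other strand, and Isg15 had 3 that overlap.

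Surface proteins of the LY6 and MS4A families, several of them induced by interferons, also rose, with 9 of 20 higher, 0 lower and a median of 0.21. Ly6a, the antigen known as Sca-1, was at 16.2 to 26.8 CPM in WT_media (median 21.5) and 34.6 to 90.5 CPM in KO_media (median 41.7; log2 1.19, SE 0.192, adjusted p = 0.00114, edgeR). Ms4a4c, a tetraspan protein of monocytes, was at 17.0 to 24.1 CPM (median 21.7) and 28.1 to 75.6 CPM (median 35.5; log2 0.97). Ly6e rose by 0.74. The groups did not overlap in any of these, and KO_media replicate 1 was the highest library in each.

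Genes that mark monocytes, the blood cells that give rise to many macrophages, were higher in KO_media. Of 19 tested, 8 rose (42.1%) and 1 fell (5.26%), against 4.17% and 3.81% of all tested genes. The median was 0.31 (0.30 without KO_media replicate 1). Ccr2, the chemokine receptor by which monocytes leave the marrow, was at 171 to 200.5 CPM in WT_media (median 197) and 231 to 305 CPM in KO_media (median 265; log2 0.48, SE 0.0565, adjusted p = 4.11e-05, edgeR). Cx3cr1, the receptor for fractalkine, was at 9.68 to 13.2 CPM (median 12.5) and 16.6 to 22.5 CPM (median 19.9; log2 0.70). Both were above WT_media in every KO_media library. Chil3, a chitinase-like secreted protein, rose by 0.51 and Spn, the sialomucin CD43, by 0.27. F13a1, a clotting factor chain made by monocytes and some macrophages and named after its values were seen, was the 1 lower member (106 to 130 against 93.1 to 102 CPM, log2 -0.27).

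Granulocyte genes were low in both groups and higher in KO_media. Of 19 tested, 7 rose (36.8%, against 4.17% of all tested genes) and 0 fell, with a median of 0.41. S100a9, a subunit of the calcium-binding protein calprotectin, was at 27.8 to 32.9 CPM in WT_media (median 29.5) and 37.0 to 46.0 CPM in KO_media (median 41.8; log2 0.50, SE 0.0524, adjusted p = 1.23e-05, edgeR). The other subunit S100a8 rose by 0.51, the granule protein genes Ngp and Ltf by 0.54 and 0.53 and Lcn2, an iron-trapping secreted protein, by 0.57, all without overlap. Summed over 9 markers, granulocyte genes came to 71.5 to 84.6 CPM in WT_media and 97.6 to 113 CPM in KO_media. On the length-corrected scale the highest, S100a9, reached 60.3 in KO_media, where Lyz2 was at 12737. The part of granulocyte RNA in the other differences was not tested.

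**Figure D3:**
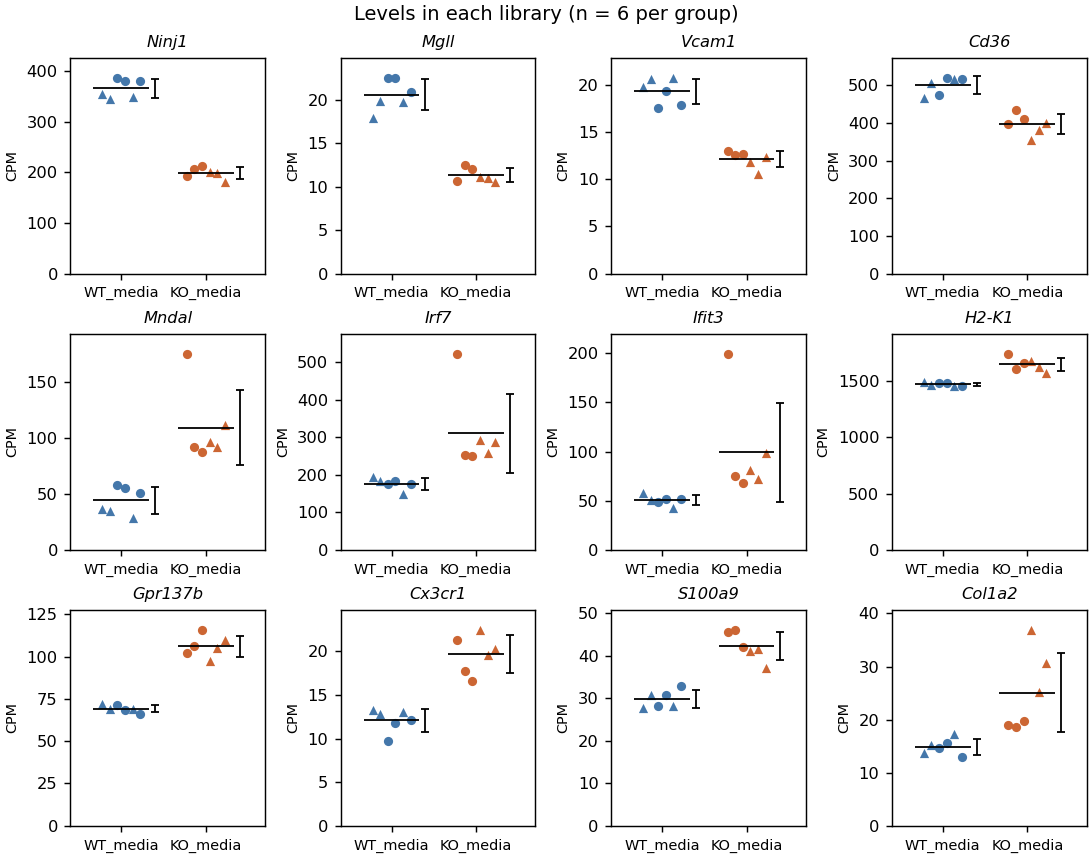
Levels in CPM of 12 genes in each library, from 0, with WT_media in blue and KO_media in orange. Lines are means, bars SD (n = 6), and circles and triangles the libraries with the lower and higher sample numbers of a group. In all 12 genes the groups do not overlap, and in Mndal, Irf7 and Ifit3 a single KO_media library (175, 523 and 199.6 CPM) lies far above the other 5.

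Genes of connective tissue cells were also higher, and here the KO_media libraries fell into sets. Of 27 tested stromal and endothelial markers 16 rose (59.3%, against 4.17% of all tested genes) and 0 fell, with a median of 0.52. Col1a2, a collagen chain, was at 13 to 17.3 CPM in WT_media (median 14.9) and 18.7 to 36.9 CPM in KO_media (median 22.5; log2 0.75, SE 0.142, adjusted p = 0.00359, edgeR). Col3a1 rose by 0.57 and Bgn, a matrix proteoglycan, by 0.65. The groups did not overlap for Col1a2 and Col3a1 and did for Bgn. Summed over 8 markers, these genes came to 43.9 to 56.7 CPM in WT_media and 59.8 to 109 CPM in KO_media, and the highest on the length-corrected scale was Sparc at 4.02. The count of 16 was 10 without WT_media replicate 3, 9 without KO_media replicate 4 and 10 without KO_media replicate 6. With KO_media replicates 1 to 3 alone against all WT_media it was 2. All KO_media gave 3 against WT_media replicates 3, 4 and 6 and 0 against replicates 1, 2 and 5. By the mean level of the list, KO_media replicates 4 to 6 lay 0.40 to 0.76 log2 units above the WT_media mean and replicates 1 to 3 lay 0.14 to 0.20 above it. The part of stromal RNA in the other differences was not tested.

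The 5 genes higher in KO_media with the smallest adjusted p stood in none of the interferon lists. Gpr137b, a lysosomal membrane protein that regulates mTORC1 (ENSMUSG00000021306, chr13:13357620-13394014), was at 65.7 to 71.7 CPM in WT_media (median 68.8) and 97.6 to 116 CPM in KO_media (median 106; log2 0.62, SE 0.0367, adjusted p = 1.18e-08, edgeR). Itgb7, the beta chain of gut-homing integrins, was at 24 to 31 CPM (median 28.1) and 39.3 to 46.9 CPM (median 43.3; log2 0.64, adjusted p = 2.35e-06, edgeR). Fxyd5, a regulator of the sodium pump, rose by 0.26 (384 to 412 against 474 to 493 CPM). Napsa, an aspartic protease, rose by 0.42, Selenow, a selenoprotein, by 0.32, and Lsp1, an actin-binding protein of leukocytes, by 0.34. Groups without overlap were a condition for naming these genes. Their rises did not rest on KO_media replicate 1, without which they were 0.63, 0.63, 0.26, 0.40, 0.30 and 0.33.

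Among less abundant genes with large rises were Synpo, an actin-associated protein (0.233 to 0.478 against 0.566 to 1.6 CPM, log2 1.29), and Ndrg4 (0.548 to 0.829 against 1.08 to 1.87 CPM, log2 1.05). Ptgs2, the inducible cyclooxygenase, was at 0.118 to 0.466 CPM in WT_media and 0.534 to 0.770 CPM in KO_media (log2 1.01, adjusted p = 0.0136, edgeR). Ehd2, a protein of caveolae, rose by 0.91 and was higher in KO_media replicates 4 to 6 than in replicates 1 to 3. With KO_media replicates 1 to 3 alone against all WT_media, the calls of all 4 genes ended. Those of Synpo, Ehd2 and Ptgs2 ended against WT_media replicates 1, 2 and 5 too. The Ptgs2 call also ended against WT_media replicates 3, 4 and 6 and in the fit of all 24 libraries. All 4 were named under a rule that required groups without overlap, so its absence here is no further result.

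Among genes lower in KO_media, Mgll stood out after Ninj1. It encodes monoacylglycerol lipase, which breaks down monoacylglycerols and the endocannabinoid 2-AG (ENSMUSG00000033174, chr6:88724412-88828360). Its level was 18.0 to 22.6 CPM in WT_media (median 20.4) and 10.5 to 12.5 CPM in KO_media (median 11.1; log2 -0.86, SE 0.0589, adjusted p = 8.16e-08, edgeR). Hyal1, a lysosomal hyaluronidase, was at 29.3 to 32.7 CPM (median 30.4) and 21.4 to 22.1 CPM (median 21.8; log2 -0.49, adjusted p = 1.16e-07, edgeR). Vcam1, an adhesion molecule of endothelium and of some tissue macrophages, was at 17.5 to 20.7 CPM (median 19.5) and 10.5 to 13 CPM (median 12.4; log2 -0.67, adjusted p = 9.68e-07, edgeR). Every KO_media library lay below every WT_media library in all 3, which the naming rule required.

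Other genes with small p-values in this direction were Adcy3, an adenylate cyclase (-0.35), Epas1, the hypoxia factor HIF-2α (-0.41), Megf9 (-0.37) and Pfkfb3, which drives glycolysis by making fructose-2,6-bisphosphate (-0.23), none with overlap. Several genes with large fitted falls were at low levels. Mtus2, a microtubule-associated protein, was at 2.91 to 4.17 CPM in WT_media and 1.07 to 1.94 CPM in KO_media (log2 -1.11, SE 0.138, adjusted p = 7.47e-05, edgeR). Paqr9 fell by 0.93, Tmem26 by 0.73, Selenbp2 by 0.73, Pyroxd2 by 0.56 and Rims3 by 0.49 on the log2 scale. Mrap (-0.73) and Lilra5 (-0.56) were called lower too, and both calls ended without KO_media replicate 4.

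Genes of lipid handling were divided. Of 39 tested, 8 fell (20.5%) and 3 rose (7.69%), against 3.81% and 4.17% of all tested genes. The median was 0.00. Cd36, a scavenger receptor for fatty acids and oxidised lipoproteins, was at 466 to 519.6 CPM in WT_media (median 511) and 356 to 434 CPM in KO_media (median 398; log2 -0.34, SE 0.0414, adjusted p = 6.27e-05, edgeR). Fabp4, a fatty acid carrier in the cytosol, was at 109 to 119 CPM (median 113) and 83.4 to 102 CPM (median 91.0; log2 -0.31). Alox5ap, which feeds arachidonic acid to 5-lipoxygenase, rose by 0.20 (311 to 325 against 360 to 369 CPM). None of the 3 overlapped.

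Of 28 tested receptors by which macrophages take up particles, dead cells and modified proteins, 7 fell (25.0%) and 2 rose (7.14%). Over all genes 3.81% were lower and 4.17% higher. The other 19 were not called, and the median was -0.00376. The 2 higher were 1 without WT_media replicate 5 or 6 or KO_media replicate 4. Stab1, a scavenger receptor, was at 2442 to 2850 CPM in WT_media (median 2576) and 2073 to 2223 CPM in KO_media (median 2134; log2 -0.28, SE 0.0365, adjusted p = 0.000101, edgeR). Mertk, a receptor for apoptotic cells, fell by 0.15 on the log2 scale without overlap, while Msr1 (-0.20) and the inhibitory receptor Fcgr2b (-0.21) fell with overlapping groups. The mannose receptor Mrc1 was also lower (-0.14, groups overlapping). Among lectins, Clec7a, which binds fungal glucans, fell by 0.15 and Cd22 by 0.27, both without overlap. The list of lectins as a whole had 4 lower and 4 higher of 26 (15.4% each). The higher were 2 without WT_media replicate 3 or 5 or KO_media replicate 4.

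Iron genes had 4 lower (25.0%) and 2 higher (12.5%) of 16, against 3.81% and 4.17% of all tested genes. Tfrc, the transferrin receptor, was at 656 to 789 CPM in WT_media (median 700.1) and 525 to 585 CPM in KO_media (median 557; log2 -0.35, SE 0.0403, adjusted p = 3.03e-05, edgeR). Slc40a1, which encodes the iron exporter ferroportin, was at 274 to 310 CPM (median 305) and 216 to 268 CPM (median 251; log2 -0.27). Thus the genes of an importer and of the exporter both fell, without overlap.

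Growth factors and cytokines had 2 higher (9.52%) and 3 lower (14.3%) of 21, against 4.17% and 3.81% of all tested genes. Igf1, a growth factor made by macrophages, was at 591 to 682 CPM in WT_media (median 609) and 500.1 to 543 CPM in KO_media (median 520; log2 -0.25, SE 0.0339, adjusted p = 0.000162, edgeR). Csf1, the growth factor of macrophages themselves, rose by 0.39 and Pdgfb by 0.34, both without overlap. Chemokine ligands had 5 higher and 2 lower of 20. Cxcl16 rose by 0.24, while Ccl6 and Ccl8 fell by 0.15 and 0.22, without overlap in any. The 5 higher ligands were 3 without WT_media replicate 3, 4 or 6 or KO_media replicate 4 or 5.

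Toll-like receptor genes and adaptors had 5 higher (20.8%) and 0 lower of 24, against 4.17% and 3.81% of all tested genes. Tlr2, the receptor for bacterial lipopeptides, was at 92.4 to 110.4 CPM in WT_media (median 103) and 110.7 to 127 CPM in KO_media (median 117; log2 0.22, SE 0.0420, adjusted p = 0.00417, edgeR). Its co-receptor Cd14 rose by 0.16 and the adaptor Myd88 by 0.20. Of the genes of NF-kB and its feedback, 7 of 24 (29.2%) were higher, among them the inhibitor Nfkbie (0.27), and 0 lower. The 5 and 7 dropped to 3 and 4 without KO_media replicate 4 or 5 or WT_media replicate 6, and the 5 to 3 also without WT_media replicates 2 to 5 or KO_media replicate 6. Matrix proteases and inhibitors moved both ways, 6 higher (21.4%, with 3 without KO_media replicate 4) and 7 lower (25.0%) of 28. Mmp12 and Mmp27 fell by 0.24 and 0.38, and Mmp14, a membrane-bound protease, rose by 0.54, all without overlap.

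Genes of the pathway in which NINJ1 acts held few calls, and 1 of these was Ninj1 itself, the targeted gene. Of 22 tested inflammasome and pyroptosis genes, Ninj1 and Gsdme were lower (9.09%) and Mefv higher (4.55%). Over all tested genes the shares were 3.81% and 4.17%. The lower share of the list counts Ninj1, whose fall follows from the design, so it says nothing about the rest of the pathway. Gsdme, a gasdermin (8.19 to 9.87 against 7.45 to 8.68 CPM, log2 -0.21, adjusted p = 0.0334, edgeR), and Mefv, the pyrin sensor (0.33, adjusted p = 0.0494, edgeR), overlapped between groups, and the calls ended without any 1 of 8 and of 10 single libraries. Gsdmd, whose pores act upstream of NINJ1, was at 80.7 to 90.7 CPM in WT_media and 88.7 to 105 CPM in KO_media (log2 0.13, SE 0.0426, adjusted p = 0.0787, edgeR). Nlrp3 (log2 0.01, SE 0.0309), Casp1 (0.10, SE 0.0432), Casp4 (0.22, SE 0.0775) and Il1b (0.91, SE 0.346, at 0.474 to 3.20 CPM) did not pass the test either. Without KO_media replicate 1, the library at 3.20 CPM, Il1b was at 0.41. Among genes of apoptosis and necroptosis 1 of 26 was higher and 1 lower (3.85% each). The lower was the survival factor Bcl2 (8.54 to 10.2 against 5.31 to 7.62 CPM, log2 -0.47, SE 0.0753, adjusted p = 0.00105, edgeR). The 1 higher call ended without any 1 of 9 single libraries and with DESeq2 or limma. Membrane repair and ESCRT genes had 1 higher (3.57%) and 2 lower (7.14%) of 28. The higher were 0 without WT_media replicate 3 or KO_media replicate 4 and 3 without KO_media replicate 6.

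**Figure D4:**
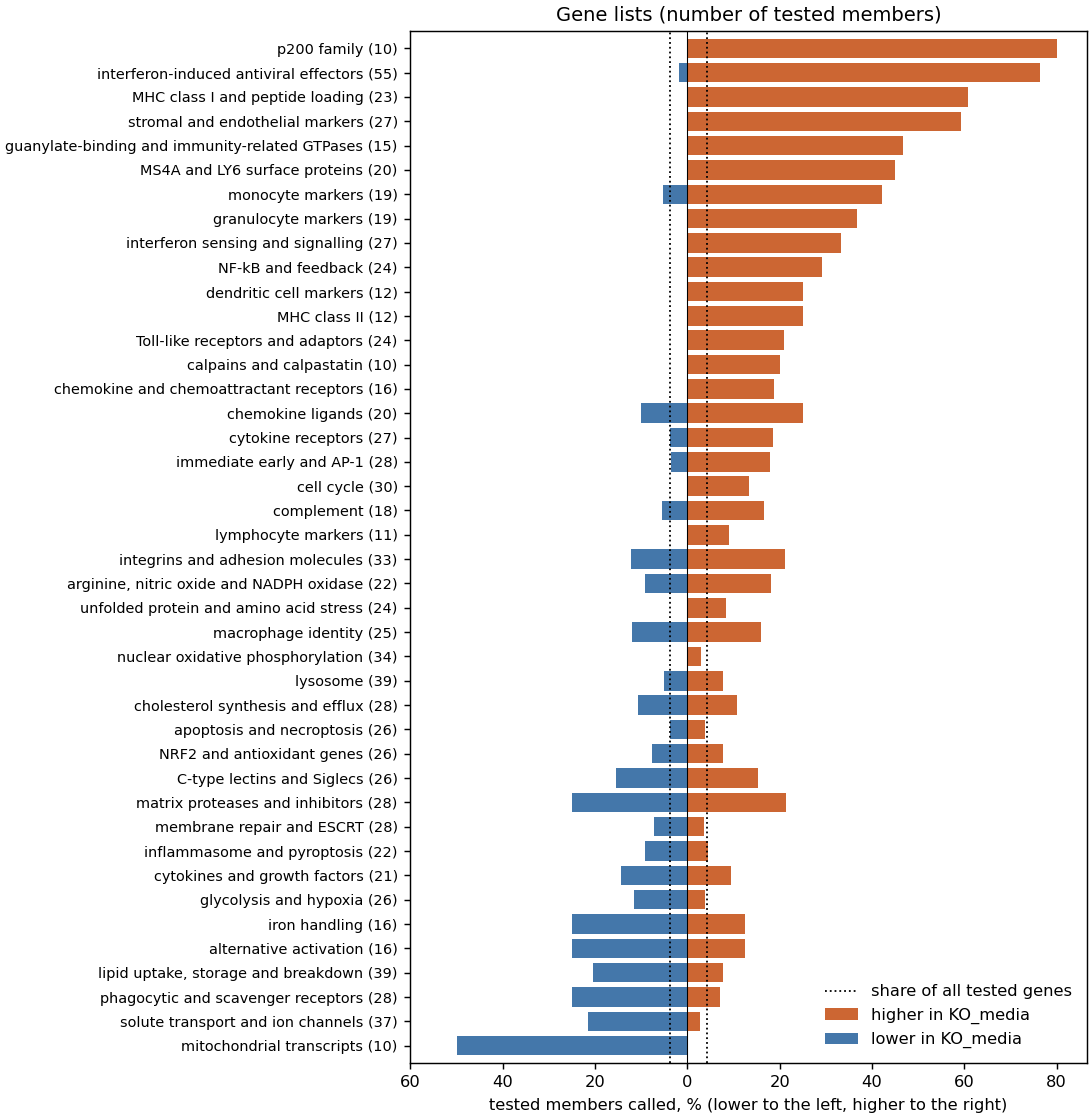
Share of tested members called higher (orange, right) or lower (blue, left) in KO_media for each gene list with at least 10 tested members, whose number is in brackets. Dotted lines mark the shares over all tested genes, 4.17% and 3.81%. The p200 family (80.0% higher) and antiviral effectors (76.4%) lie at the top and mitochondrial transcripts (50.0% lower) at the bottom.

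Transcripts of the mitochondrial genome were lower, 5 of 10 called and a median of -0.18, along with the lower mitochondrial share of reads. mt-Cytb was at 1677 to 1937 CPM in WT_media and 1423 to 1722 CPM in KO_media (log2 -0.20, SE 0.0426, adjusted p = 0.00877, edgeR), and mt-Nd2 fell by 0.24, both with overlapping groups. The 5 were 0 with KO_media replicates 1 to 3 alone. Nuclear genes of oxidative phosphorylation had 1 higher (2.94%, with 3 without KO_media replicate 6) and 0 lower of 34. Over all tested genes 4.17% were higher and 3.81% lower. Long RNAs that stay in the nucleus varied within WT_media. Malat1 was at 700 to 2137 CPM there (median 1204) and 644 to 909 CPM in KO_media (median 776; log2 -0.74, SE 0.198, adjusted p = 0.0275, edgeR). Neat1 (-0.33), Kcnq1ot1 (-1.22) and Xist (-0.24) were called lower as well. All 4 overlapped between groups, were lost without any 1 of 5 to 9 single libraries, and Malat1, Neat1 and Kcnq1ot1 were named after their values were seen. WT_media replicate 3 was the highest library in Malat1, Neat1 and Kcnq1ot1. Whether RNA quality takes part in these differences was not tested.

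Within the groups, the libraries were not all alike. Each group was divided into the 3 libraries with the lower and the 3 with the higher sample numbers in its labels. The labels mark no such division: it was made because Capn11 was known from earlier results of these data to follow it, so the difference of Capn11 between the sets is a description. In KO_media, 68 of 14451 genes (0.471%) differed between the 3 lower and 3 higher numbers, and in WT_media 10 (0.0692%). The labels do not say what the numbers stand for. Of the 68 genes, 63 of 64 tested had the same direction between the sets of KO_Pam3, of which 5 were called, against 0.0448% of all genes there. Of the 10, all 10 had the same direction between the sets of WT_Pam3 and 0 were called (background 0.00746%). How often all tested genes had the same direction was not computed. The 68 were 25 to 30 without KO_media replicate 2, 3, 4 or 6, and the 10 were 6 without WT_media replicate 2 and 16 without KO_media replicate 1.

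Diaph2, a formin that builds actin filaments, showed this most clearly: 8.63 to 11.0 CPM in the first 3 KO_media libraries, 44.5 to 46.2 CPM in the other 3, and 64.4 to 74.0 CPM in WT_media. It was lower in KO_media (log2 -1.30, SE 0.329, adjusted p = 0.0214, edgeR), and the sets differed by 2.24 (SE 0.0746). The genotype call ended with DESeq2, in the fit of all 24 libraries and against either WT_media set alone, with log2 fold changes of -1.31 to -1.29. Capn11, a calpain protease, was at 0 in 3 WT_media libraries and 0.319 to 0.441 CPM in the other 3, while KO_media replicates 1 to 3 had 1.2 to 1.41 CPM and replicates 4 to 6 had 5.05 to 6.61 CPM (genotypes, log2 4.17, SE 0.623, adjusted p = 0.000530, edgeR). Trav14d-3-dv8, a T-cell receptor segment, was at 1.31 to 1.69 CPM in 9 libraries and 0 in KO_media replicates 4 to 6. Atp9a, a lipid flippase, was at 1.75 to 1.91 CPM and 0.392 to 0.694 CPM in the same sets, with WT_media between. Xlr was the reverse, at 0.0809 to 0.123 and 0.448 to 0.721 CPM.

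In WT_media, Slc15a2, a peptide transporter, was at 2.97 to 4.0 CPM in replicates 3, 4 and 6 and 1.17 to 1.55 CPM in replicates 1, 2 and 5. Cryab, a small heat shock protein, was at 1.41 to 1.85 and 0.182 to 0.478 CPM in the same sets. Eps8l1, Prdm16 and Kif20a were higher in the set of replicates 1, 2 and 5 by 0.68, 0.87 and 0.44 on the log2 scale. The labels leave out whether a set shares an animal or a culture. With counts summed within sets, 2 sums against 2, 435 genes were higher and 373 lower. Of the genes called over 6 against 6 libraries, 354 of the higher and 290 of the lower were called in this way too.

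Genes near Ninj1 were looked at because a knockout allele can carry flanking sequence from another strain. Within 5 Mb of Ninj1, 5 of 45 other tested genes were higher and 1 lower (13.3% called, against 7.97% of all), within 10 Mb 8 and 2 of 112 (8.93%) and within 40 Mb 15 and 11 of 369 (7.05%). The 6 genes, named after their values were seen, were Gm34084 (0.69), Jarid2 (0.30), Susd3 (0.14), Sema4d (0.15), Fgd3 (0.14) and Mylip (-0.15). The calls of Sema4d and Fgd3 ended without any 1 of 7 and of 6 single libraries. By chromosome, the share called ran from 5.30% on chromosome 18 to 10.7% on chromosome 15 among the autosomes, with 7.22% on chromosome 13.

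After Pam3 the medians of the antiviral, GTPase and MHC class I lists lay below 0, while those of monocyte, granulocyte and stromal genes lay above 0 as they did at rest. This was read from the other 12 libraries, 6 KO_Pam3 against 6 WT_Pam3 in a fit of their own, where 0.486% of genes were higher and 0.879% lower in the knockout. The median log2 fold change of the antiviral effectors was -0.07 there, that of the GTPases -0.13 and that of class I genes -0.11. Medians after Pam3 were 0.27 for monocyte, 0.22 for granulocyte and 0.41 for stromal genes. Of the 560 tested genes higher at rest, 29 were also higher after Pam3 and 3 lower (Gm12250, Gbp2 and Irf1), and of the 505 lower at rest 54 were lower and 0 higher. Gm12250, Gbp2 and Irf1 were named outside the naming rule. Their calls at rest ended without any 1 of 6, of 7 and of 8 single libraries. WT_Pam3 replicate 5 stands apart from its group, and the medians after Pam3 were not computed again without it. Without it, the background was 3.6% higher and 5.91% lower, and 115 of 563 genes higher at rest were higher after Pam3 and 33 lower, while of 506 lower at rest 180 were lower and 3 higher.

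Ninj1 was as much lower after Pam3 (-0.90, adjusted p = 0.00188, edgeR), and so were Mgll (-0.91), Mtus2 (-1.19) and Paqr9 (-1.13). Gpr137b was higher by 0.63 (adjusted p = 5.58e-06, edgeR), Itgb7 by 0.54, Mndal by 1.04 and Ly6a by 0.64, all past the test. In contrast, Irf7 stood at -0.01 (adjusted p = 0.984, edgeR) and Ifit3 at -0.20 (adjusted p = 0.261, edgeR). Neither passed the test after Pam3.

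The test of the difference itself, an interaction fitted over all 24 libraries, called 110 genes (0.762%). Of the 581 genes higher at rest, 46 had a larger effect in media than after Pam3 and 0 a smaller one. Of the 531 lower genes, 8 had a more negative and 2 a less negative effect in media. All of these genes were chosen on the media libraries that also enter the interaction, which favours larger effects in media. Both divisions are therefore descriptions only. Among the interferon-induced genes the difference passed for Ifit3 (1.18, adjusted p = 0.0221), Tgtp2 (1.12), Ifi206 (1.04), Irf7 (0.83, adjusted p = 0.0264, edgeR for both), Oasl2 (0.78), Irgm1 (0.69) and Slfn2 (0.45). It did not pass for Mndal (0.28, SE 0.292) or Ninj1 (0.04, adjusted p = 0.922, edgeR). Nor did it pass for Isg15, Ddx58, Irgm2, Ifi211, Ifi27l2a, Ly6a, Ly6e or Ms4a4c, all higher at rest. The count of 110 was 544 without WT_Pam3 replicate 5. It was 28 without WT_media replicate 3 or 5 and between 37 and 73 without WT_media replicate 2, 4 or 6, KO_media replicate 4, WT_Pam3 replicate 2 or 4, or KO_Pam3 replicate 2, 3 or 4.

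**Figure D5:**
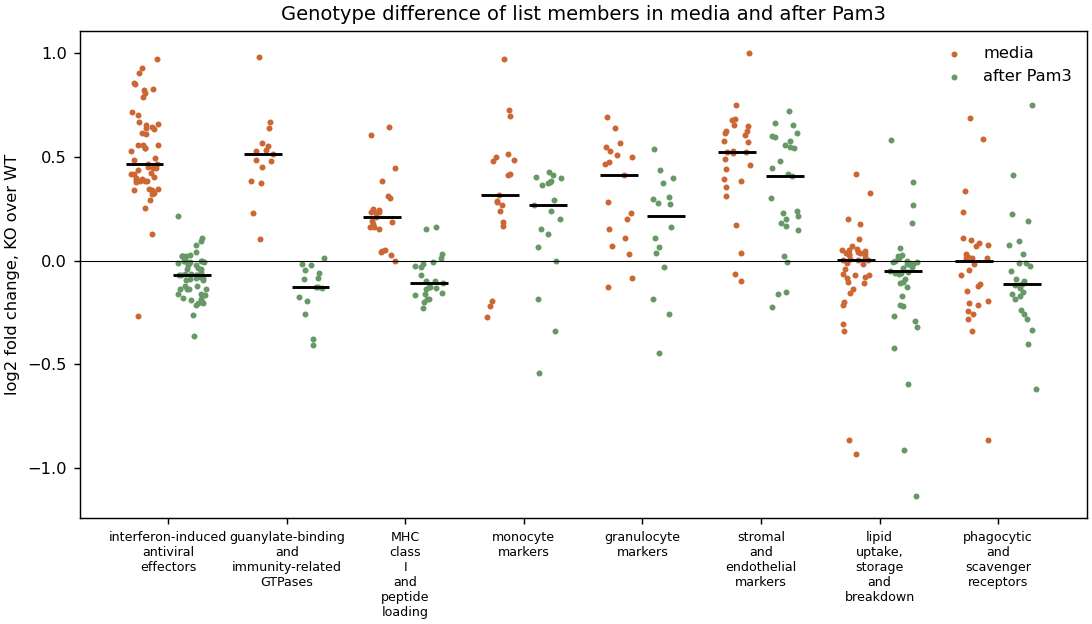
Fitted log2 fold change of knockout over wild type for each tested member of 8 gene lists, in media (orange) and after Pam3 (green), each from a fit of its own 12 libraries, with medians as black lines. Antiviral effectors have medians of 0.47 and -0.07, stromal markers of 0.52 and 0.41.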

How the data were processed

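RNA with a poly(A) tail was sequenced from 24 libraries, of which the 12 unstimulated ones are compared here. The deposited files give, per the file headers, a count of uniquely aligned reads for each gene model and a size-factor-adjusted RPKM value. The submitters' processing notes name GSNAP and GRCm38, without versions. Counts were tested with edgeR 4.0.16 (R 4.3.3): TMM scaling, filterByExpr, quasi-likelihood F-test, Benjamini-Hochberg adjustment, threshold 0.05. The authors' RPKM values served only to compare levels between genes. Of 52636 gene models 147 carry no symbol and hold 0.00387% of reads. They went through the same filter and tests as all other models. Alternatives used DESeq2 1.42.0, limma 3.58.1, other scalings and filters, other sets of libraries, and each library left out in turn. Library preparation did not keep strand, so overlapping antisense genes cannot be told apart.

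The members and the 46 gene lists were chosen with earlier results of these data known. Named genes were the 12 largest rises and falls and the 8 smallest adjusted p in each direction among called genes without overlap between groups and with a mean of at least 20 counts, up to 4 called members per list, the 5 largest differences between sample-number sets, and a set of check genes. Genes named outside this rule are marked as such, and Plac8 was also outside it.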

Additional observations from a re-analysis of the deposited data

Results flagged for a closer look

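In 33 of 261 groups of 6 libraries examined 1 library stood apart from the other 5 by Dixon's criterion, which chance meets in about 1 in 20 groups. KO_media replicate 1 was that library, always the highest, in 26 genes. Its CPM values were 174.9 for Mndal, 43.27 for Ifi206, 416.5 for Ifi204, 57.75 for Ifi211, 199.6 for Ifit3, 100.3 for Isg15, 462.9 for Oasl2 and 523.1 for Irf7. They were 189 for Ddx58, 354 for Ifi27l2a, 732.8 for Slfn2, 10.76 for Tgtp2, 294.8 for Irgm1, 137.3 for Irgm2, 116.9 for Psme1, 147.4 for Irf1, 89.28 for Gbp2 and 46.19 for Gm12250. Most of these genes are interferon-induced. The same library stood apart at 90.54 for Ly6a, 987.8 for Ly6e, 75.6 for Ms4a4c, 26.22 for Plac8, 47.21 for Napsa, 137.2 for Myd88, 21.27 for Casp4 and 3.196 for Il1b.

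Other libraries stood apart in single genes: WT_media replicate 2 in Ninj2 (0.05183 CPM), replicate 3 in Irf1 (97.01) and Slc40a1 (274.4), replicate 4 in Nlrp3 (84.63) and Tmem26 (3.565), replicate 5 in Pdgfb (20), and KO_media replicate 5 in Paqr9 (0.5339).

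The genotype effect differed between media and Pam3 in 21 of 128 named genes by the interaction test of edgeR over 24 libraries. Of the 128, 114 were called in media, in libraries that also enter this test. The effect in media less that after Pam3, on the log2 scale, was 1.036 for Ifi206, 0.6829 for Ifi204, 1.184 for Ifit3, 0.7782 for Oasl2, 0.8343 for Irf7, 0.2747 for Irf9 and 0.4455 for Slfn2. It was 1.118 for Tgtp2, 0.6876 for Irgm1, 0.5298 for Irf1, 0.6949 for Gbp2 and 0.8903 for Gm12250. Outside the interferon lists it was 0.4816 for Mertk, 0.5193 for Csf1, 0.5712 for Mmp14, 0.2443 for Tlr2, 0.3139 for Nfkbie and 0.4073 for Cxcl16, and it was negative for Pfkfb3 (-0.4242), Rims3 (-0.665) and Fcgr2b (-0.2957).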

How the results depend on the processing

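Leaving out single libraries gave 379 to 575 higher and 379 to 532 lower genes, -0.90 to -0.85 for Ninj1, 25 to 81 and 6 to 16 genes between the sample-number sets of KO_media and WT_media, and 28 to 544 genes with an interaction. Fitting all 24 libraries gave 277 higher and 161 lower genes. KO_media replicates 1 to 3 alone against all WT_media gave 328 higher and 306 lower, and replicates 4 to 6 gave 339 lower. Against WT_media replicates 3, 4 and 6 alone there were 180 higher and 302 lower, and against replicates 1, 2 and 5 113 and 171. These fits hold fewer libraries. With no filter on low counts 327 and 41 genes differed between the sets and 63 had an interaction, and DESeq2 gave 357 for the latter. The cause was not tested. Of 114 called named genes, 53 were called in all 25 alternatives and 99 without any single library. Where the main fit or the alternative passed the test, 0 of 128 changed direction. Changes of sign in genes past the test in neither fit were not counted. An example is Nlrp3, at 0.0136 in the main fit and -0.0025 without KO_media replicate 1. Other scalings moved the median of all genes by under 0.01 on the log2 scale. No paired analysis was possible because the labels give no replicate numbers.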

Other observations

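Genes of alternative activation, the state that interleukin 4 induces, had 4 lower (25.0%) and 2 higher (12.5%) of 16 tested. Over all tested genes 3.81% were lower and 4.17% higher. Arg1, the arginase that marks this state, was at 0.648 to 1.32 CPM in WT_media and 0.277 to 0.721 CPM in KO_media (log2 -0.89, SE 0.218, adjusted p = 0.0181, edgeR's quasi-likelihood test), with overlap. The list of immediate early and AP-1 genes had 5 higher (17.9%) and 1 lower (3.57%) of 28, with a median of 0.06. Leaving out single libraries gave 2 to 6 higher and 1 to 3 lower. The 1 lower was Egr2, a transcription factor, which fell by 0.30 on the log2 scale without overlap (42.9 to 53.7 against 38.7 to 41.8 CPM).

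Solute carriers and ion channels had 8 lower (2 in the fit of all 24 libraries) and 1 higher (2 without KO_media replicate 1) of 37 tested, with a median of -0.04. The shares were 21.6% lower and 2.70% higher, against 3.81% and 4.17% of all tested genes. Cell cycle genes had 4 higher (13.3%) and 0 lower of 30, with 2 higher without WT_media replicate 1 or 3 or KO_media replicate 4 or 6. Nuclear genes of oxidative phosphorylation lay above 0 in 30 of 34, with 1 called. Markers of dendritic cells had 3 higher (25.0%) and 0 lower of 12, and those of mast cells, basophils and eosinophils 0 called of 6. In KO_media the dendritic list summed to 352 to 467 CPM and the lymphocyte list to 573 to 603 CPM. The list of erythroid cells and megakaryocytes summed to 221 to 238 CPM there.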
